A study of Mus musculus with 40 samples.

Results

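The low fat diet arrays of this series were compared over time, early against late, with 4 arrays in each group. The early arrays are labelled 1 Day, 6 Day, 10 Day and Week0, and the late arrays Week6, Week9, Week12 and Week15. They were grouped by their diet and time labels, and they are 8 of the 40 arrays in the series. Of the other low fat arrays, 3 were left out, namely 14 Day with 9104 outlier spots, Week3 with 16.8% of its probes well above background, and Week18, whose marker genes were unlike those of the rest. The choice to leave out Week18 thus used levels of the kind compared here, and with these 3 arrays added no gene was called. A paper on liver arrays of the same experiment counts the weeks from Day 14. By that count Week0 is not a time before the diet, and the left-out 14 Day array shares its time.

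C57BL/6J mice were weaned at 3 to 4 weeks of age and then placed on a normal diet, with 10% of calories from fat, or on a high fat diet (HFC). Each array holds Cy3-labelled total RNA of tissue called subcutaneous stromal vascular cells (SVCs) in its label and infiltrating macrophages in the series title. The series text speaks of 3 biological replicates for each diet, while the labels give each time point 1 low fat array, and which part of such replicates an array holds is not stated. So arrays of different time points stand in for replicates and their spread includes any change within a period. The labels do not state how old the mice of each array were, nor how many mice an array holds.

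The stromal vascular part of fat is what remains when the fat cells are removed, and it holds macrophages, lymphocytes, vessel cells and fibroblast-like progenitors. B cells carry a surface antigen receptor that signals through Cd79a and Cd79b, and the coreceptor Cd22 dampens that signal. In lymph nodes, high endothelial venules decorated with Glycam1 capture lymphocytes from the blood, and Cxcl13 guides B cells through Cxcr5. The inguinal fat pad of the mouse contains such a node, and the labels do not say which subcutaneous pad was taken.

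The genes that passed the test were all lower late, on all 4 late arrays below all 4 early arrays, and among them were 4 of 9 B cell markers, 2 of 8 lymph node markers and 3 of 20 mitosis genes. The lists here and below were chosen with earlier results of these data known, so their counts give no independent support. With only probes well above background on all 8 arrays, 3 B cell markers, 1 lymph node marker and 12 mitosis genes were called. In that setting 86 of 14354 genes tested were called lower. With each array left out in turn, 0 B cell markers were called in 3 of the 8 cases. The same held for lymph node markers in 6 cases and for mitosis genes in 7. Of 22249 genes tested with limma, 20 fell (0.0899%) and 0 rose (0%) at a Benjamini-Hochberg adjusted p under 0.05. At an unadjusted p under 0.05, 1489 genes were lower and 558 higher, 9.2% of all genes tested together. The methods' t-test called 0 genes after the same adjustment, with 1587 lower and 421 higher at an unadjusted p under 0.05. The early and late arrays did not overlap for 992 genes that were lower late (4.46%) and 233 that were higher late (1.05%). The median late minus early difference of all genes tested was -0.09 on the log2 scale. Levels are log2 intensities relative to the 75th percentile of the same array, and differences are late minus early on that scale.

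**Figure D1:**
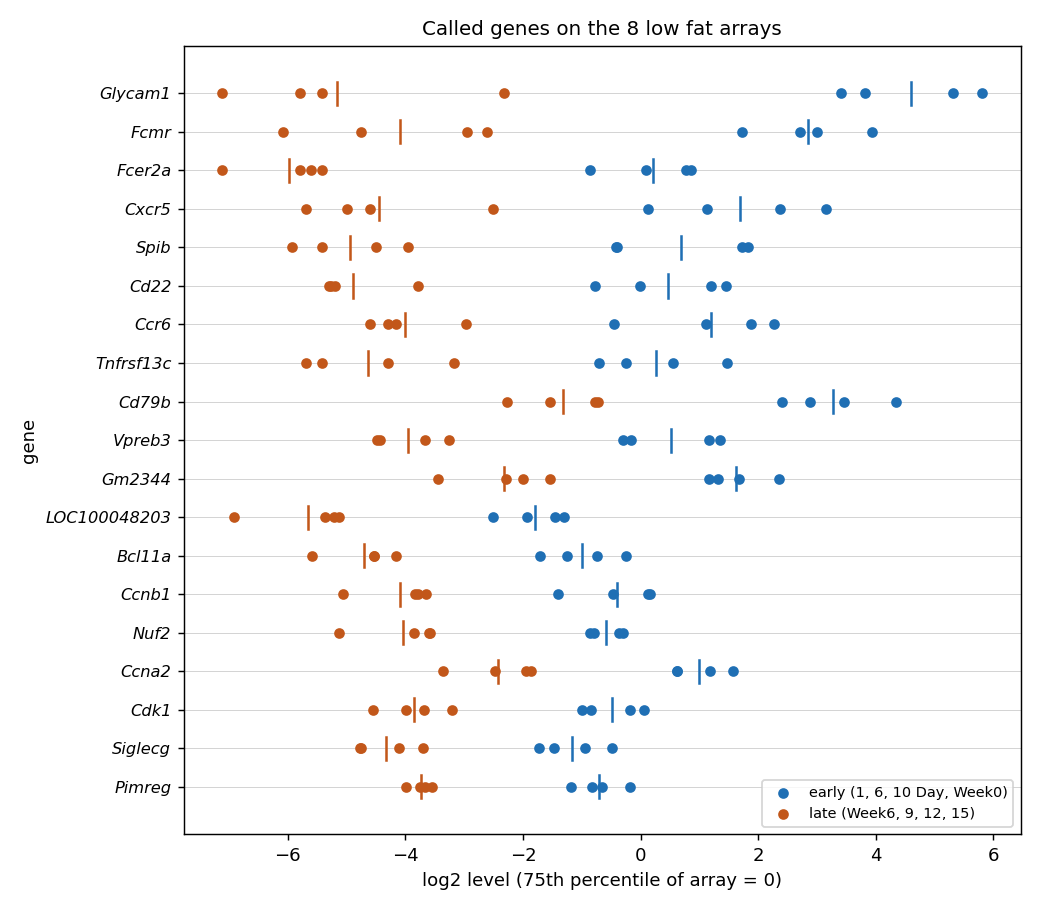
Log2 level of 19 of the 20 called genes on each low fat array, with the 75th percentile of the array at 0; blue points are the 4 early arrays, orange points the 4 late arrays and bars the group means. For each gene all late points lie to the left of all early points, with Glycam1 at 3.41 to 5.81 early and -7.12 to -2.32 late.

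Of the 9 B cell markers, 4 fell, and all 9 had differences below 0, with a median of -5.06 that includes members at the floor on late arrays. With each array left out in turn, 0 of the 9 were called in 3 of the 8 cases. Cd79b, a signalling subunit of the B cell receptor, had levels of 4.34, 2.40, 3.46 and 2.87 at 1 Day, 6 Day, 10 Day and Week0, and of -1.54, -0.72, -2.27 and -0.78 at Week6, Week9, Week12 and Week15. It fell by 4.59 (SE 0.544, 95% interval -5.81 to -3.38, adjusted p = 0.0379, 4 against 4 arrays), a 24.2-fold difference, with every late array below every early array. Cd22, an inhibitory coreceptor, had 1.46, -0.78, 1.20 and -0.01 early and -5.19, -5.30, -5.26 and -3.78 late, and it fell by 5.35 (SE 0.599, adjusted p = 0.0379).

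Fcer2a, the low-affinity IgE receptor of mature B cells, stood at 0.77, -0.85, 0.86 and 0.09 early and at -5.41, -5.80, -7.12 and -5.60 late. It was well above background on 1 of the 4 late arrays, and the other late values are the floor of the array, the lowest level well above background there. Its difference and p rest on these floors, so it is given by its levels alone. Of the members that were not called, Cr2 differed by -5.06 (adjusted p = 0.0533), Cd79a by -2.91 (adjusted p = 0.0533) and Ms4a1, which encodes CD20, by -5.55 (adjusted p = 0.0723). Blk, a B cell kinase, was not well above background on any late array, and Pax5, the lineage's transcription factor, overlapped between the groups with a difference of -1.45 (adjusted p = 0.604). Cr2 was well above background on 1 late array and Cd79a on 2, so the sizes of their differences rest on floors too. Of the 9 markers, 3 were well above background on all 8 arrays, and the groups did not overlap for these 3, beside 5.17% of all 14035 such genes that were lower late without overlap.

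Further genes were called outside the lists. Fcmr, the receptor for the constant part of IgM, had 3.94, 1.73, 3.00 and 2.70 early and -2.60, -4.76, -6.08 and -2.95 late, and fell by 6.94 (SE 0.799, adjusted p = 0.0379). Tnfrsf13c, the receptor for the survival factor BAFF, fell by 4.91 (SE 0.672, adjusted p = 0.0453) and was well above background on 3 of the 4 late arrays. The transcription factor Spib fell by 5.63 (SE 0.687), from levels of -0.41 to 1.82 early to levels of -5.93 to -3.95 late. The adjusted p of Spib was 0.0379, and the groups were more than 3 log2 units apart at their nearest arrays. Vpreb3 fell by 4.47, the transcription factor Bcl11a by 3.71, the chemokine receptor Ccr6 by 5.21 and the inhibitory lectin Siglecg by 3.17, with adjusted p values of 0.0379, 0.0441, 0.0379 and 0.0485. The predicted genes Gm2344 and LOC100048203 fell by 3.95 (adjusted p = 0.0441) and 3.86 (adjusted p = 0.0441). Of the called genes, 4 had further probes, 7 in all, and the differences of all 7 were below 0, but none of the 7 passed the test (lowest adjusted p 0.0552). The other probe of Cd22 differed by -1.84 (adjusted p = 0.341), and those of Ccnb1 by -3.27 to -2.08 (adjusted p up to 0.671).

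Of the 8 lymph node markers, 2 fell, and all 8 had differences below 0, with a median of -5.12 that includes members at the floor on late arrays. With each array left out in turn, 0 of the 8 were called in 6 of the 8 cases. Glycam1, a mucin of high endothelial venules and also a milk protein, had levels of 5.81, 3.41, 5.32 and 3.82 early and of -5.41, -5.80, -7.12 and -2.32 late. Week15 was the only late array on which it was well above background, and the other 3 late values are floors. Its difference and p rest on these floors, so it too is given by its levels alone. Cxcr5, the receptor for Cxcl13, had 3.15, 0.13, 2.38 and 1.13 early and -4.60, -5.00, -5.69 and -2.51 late, and fell by 6.15 (SE 0.818, adjusted p = 0.0441). Week15 was again the highest late array and remained below the lowest early array, 6 Day. Ltb, a cytokine of lymph node formation, differed by -4.66 (adjusted p = 0.0803) and Ccr7, which brings T cells into the node, by -5.58 (adjusted p = 0.159). The stromal chemokines Ccl19 and Cxcl13 overlapped between the groups, at -2.17 and -0.95, and of the 5 markers well above background on all 8 arrays 3 did not overlap, beside 5.17% of all such genes.

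T cell markers pointed the same way, but limma called 0 of 15, with 13 at an unadjusted p under 0.05, beside 9.2% of all genes tested. Their median difference was -3.75, all 15 were below 0 and 11 did not overlap with the late arrays lower, beside 4.46% of all genes tested. Cd5, a receptor of T cells and some B cells, had 3.33, 1.97, 3.56 and 0.95 early and -1.71, -1.58, -3.24 and 0.00 late, a difference of -4.09 (SE 0.779, adjusted p = 0.0835). Cd3d, a chain of the T cell receptor complex, had 3.51, 2.19, 2.99 and 0.70 early and -2.20, -1.65, -3.81 and 0.15 late, a difference of -4.23 (SE 0.864, adjusted p = 0.102). In both genes Week0 was the lowest early array and Week15 the highest late array, and the gap between these arrays was under 1. Cd8b1 and Cd8a, the coreceptor chains of cytotoxic T cells, differed by -4.66 (adjusted p = 0.0533) and -4.06 (adjusted p = 0.101), whereas Cd4 overlapped between the groups, at -0.87 (adjusted p = 0.747).

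Each of these lists was also summed on every array, over the members with a value on all 8 arrays. These were 8 of 9 B cell, 14 of 15 T cell and 8 of 8 lymph node markers. The summed level of the B cell markers, as the log2 of their added intensities, was 4.90, 3.10, 4.24 and 3.56 on the early arrays and -0.76, -0.36, -1.59 and -0.23 on the late arrays. The same sum for the T cell markers was 5.78, 3.95, 5.52 and 3.29 early and 0.60, 0.89, -0.65 and 2.57 late. For the lymph node markers it was 7.31, 5.69, 7.28 and 5.06 early and 4.86, 1.59, 1.41 and 3.93 late. The early arrays 1 Day and 10 Day had the highest sums in all 3 lists, and no sum overlapped between the periods. The brightest members by mean level were Cd79b for B cells, Cd5 for T cells and Ccl19 for the lymph node. Of the B cell markers 5, 4, 5 and 7 of 9 were well above background on the late arrays, against 9, 7, 8 and 9 early, and Cr2, Fcer2a, Blk and Pax5 were near the floor on most late arrays. In bulk RNA, fewer cells of a type and less RNA per cell cannot be told apart. The part that the presence of lymph node tissue plays in these differences was not tested.

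**Figure D2:**
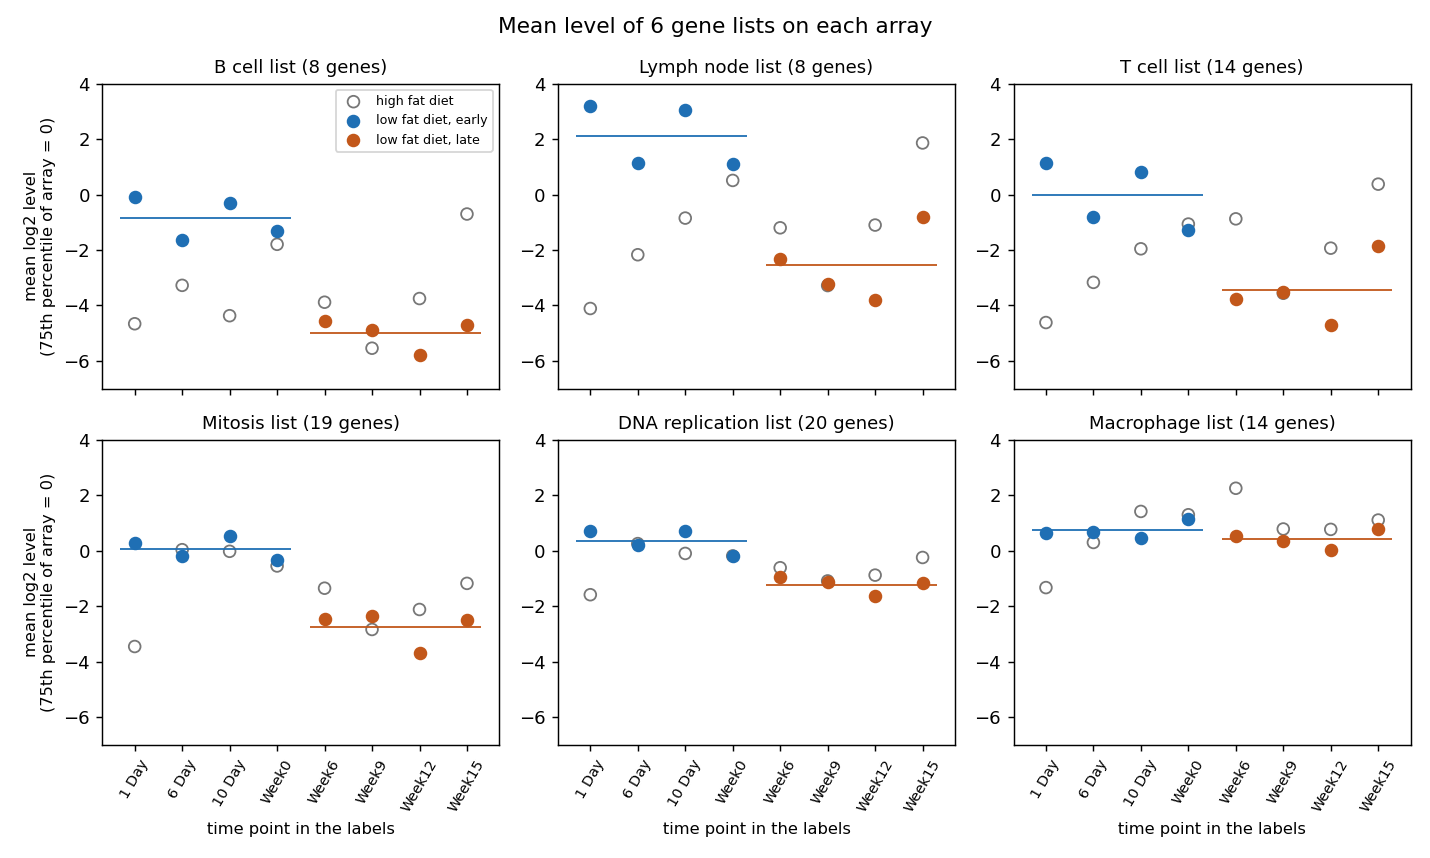
Mean log2 level of 6 gene lists (B cell, lymph node, T cell, mitosis, DNA replication and macrophage) on each array, with the 75th percentile of the array at 0, over the time points in the labels; filled blue and orange points are the early and late low fat arrays, lines their means, and open points the HFC arrays. On the low fat arrays the B cell list lies between -1.65 and -0.08 early and between -5.78 and -4.55 late.

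Mitosis genes formed the other group with calls. Of 20 tested, 3 fell, all 20 had differences below 0, the median was -2.99, and 19 did not overlap, beside 4.46% of all genes tested. With any array but Week0 left out, 0 of the 20 were called. Cdk1, the kinase that starts mitosis, had -0.17, -1.0, 0.06 and -0.84 early and -3.68, -3.21, -4.54 and -3.99 late, and it fell by 3.37 (SE 0.44, adjusted p = 0.0441). Ccnb1, its cyclin partner, had 0.16, -0.47, 0.12 and -1.40 early and -3.84, -3.65, -5.06 and -3.78 late, and it fell by 3.69 (SE 0.503, adjusted p = 0.0453). Ccna2, the cyclin of S phase and G2, had 0.61, 1.18, 1.56 and 0.62 early and -1.87, -1.95, -3.37 and -2.48 late, and it fell by 3.41 (SE 0.459, adjusted p = 0.0445). In all 3 genes Week12 was the lowest array and the late arrays lay below every early array.

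Outside the list, the kinetochore gene Nuf2 fell by 3.46 (SE 0.449, adjusted p = 0.0441) and Pimreg, a regulator of the metaphase to anaphase step, by 3.02 (SE 0.369, adjusted p = 0.0379). Further mitosis members were close to the threshold without passing it. Ccnb2 differed by -3.32, the kinesin Kif20a by -2.57 and the spindle protein Nusap1 by -3.07, each with an adjusted p of 0.0533. Mki67, which encodes the proliferation marker Ki-67, had 2.89, 2.46, 3.08 and 2.50 early and 0.40, 0.20, -1.36 and 1.47 late, a difference of -2.55 (adjusted p = 0.136). Aurka overlapped between the groups, at -0.28.

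DNA replication genes had smaller differences. Limma called 0 of 20, 14 had an unadjusted p under 0.05, the median was -1.42 and 12 did not overlap, beside 9.2% of all genes at such a p and 4.46% lower late without overlap. Mcm10, a factor that starts replication forks, differed by -2.92 (adjusted p = 0.0587), and Mcm6, a subunit of the replicative helicase, by -2.56 (adjusted p = 0.170). Pcna, the clamp of the replication polymerases, stood at 4.24, 4.01, 4.47 and 3.93 early and at 2.92, 2.51, 2.70 and 3.35 late, a difference of -1.29 (SE 0.366, adjusted p = 0.248). The Pcna arrays did not overlap, and the nearest pair was Week0 and Week15. Gins1, of the same list, differed by 0.27 and overlapped.

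The 250 bases before the starts of the mitosis genes, of which 3 were called, were searched on both strands for letters known from cell cycle promoters. CCAAT is the box bound by NF-Y, and TTTGAA is the core of the cell cycle homology region. RefSeq promoters of the build GRCm38.p6 were found for 16 of the 20 mitosis genes, and 15 of their 17 promoters (88.2%) hold CCAAT, against 33.8% of all 32851 promoters of that length. TTTGAA stands in 47.1% of the mitosis promoters and in 16% of all. The octamer ATGCAAAT, known from immunoglobulin promoters, stands in 0 of the mitosis promoters and in 1.6% of all, in 0 of the 7 promoters found for 5 of the B cell markers, and among the 20 called genes, of which 13 have a promoter entry, in Vpreb3 and Ccr6 (11.8% of their 17 promoters). Of these 17 promoters of called genes, 41.2% hold CCAAT and 23.5% hold TTTGAA, against 33.8% and 16% of all. The promoters of the called genes Cdk1, Ccnb1 and Vpreb3 are printed because they show these letters. Each runs 5′ to 3′ on the strand of the gene, capitals mark the motifs in either orientation, and none of the motifs overlaps another. A match is a description of letters and not of binding. Cdk1 lies at chr10:69352913-69353162 on the minus strand, Ccnb1 at chr13:100786487-100786736 on the minus strand and Vpreb3 at chr10:75948050-75948299 on the plus strand.
Cdk1: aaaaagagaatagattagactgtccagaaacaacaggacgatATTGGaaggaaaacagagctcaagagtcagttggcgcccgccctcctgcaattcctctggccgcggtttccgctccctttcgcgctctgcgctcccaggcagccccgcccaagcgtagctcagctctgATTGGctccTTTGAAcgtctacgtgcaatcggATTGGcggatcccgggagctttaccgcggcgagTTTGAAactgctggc
Ccnb1: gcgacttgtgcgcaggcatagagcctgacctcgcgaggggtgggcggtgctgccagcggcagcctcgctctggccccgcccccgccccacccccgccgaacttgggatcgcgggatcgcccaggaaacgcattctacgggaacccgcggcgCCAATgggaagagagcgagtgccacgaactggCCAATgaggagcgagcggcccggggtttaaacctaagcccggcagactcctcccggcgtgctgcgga
Vpreb3: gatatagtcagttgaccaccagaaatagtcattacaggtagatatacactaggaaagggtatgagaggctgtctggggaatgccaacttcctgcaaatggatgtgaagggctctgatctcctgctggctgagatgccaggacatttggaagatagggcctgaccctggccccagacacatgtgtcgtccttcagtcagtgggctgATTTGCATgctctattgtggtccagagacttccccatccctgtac

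The macrophage markers, which the series title names, were well above background in both periods with no called difference. Limma called 0 of 16, with 2 at an unadjusted p under 0.05, a median of -0.45, and 3 that did not overlap, beside 9.2% of all genes at such a p and 4.46% lower late without overlap. Cd68, a lysosomal protein of macrophages, had -0.16, 0.65, 0.15 and 0.89 early and -0.46, 0.28, -0.36 and 0.12 late (difference -0.49, adjusted p = 0.805). C1qc, a complement chain made by macrophages, had 2.38, 3.90, 2.96 and 3.12 early and 2.79, 3.34, 2.78 and 3.03 late (difference -0.11, adjusted p = 0.969). The groups overlapped in both genes. Adgre1, a surface receptor of mature macrophages, differed by -0.68, Mrc1 by 0.87 and Cd163 by 0.94. Lyz2 was measured on 2 early arrays and was saturated on both and on 3 late arrays. Alternatively activated macrophage genes had 0 of 10 called, 1 at an unadjusted p under 0.05 and a median of -0.12, with Retnla at 0.53 and Clec10a at 0.37, and lipid-associated macrophage genes 0 of 10 called, 0 at an unadjusted p under 0.05 and a median of 0.02, with Cd63 at -0.18 and Ctsd at -0.02.

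The label was also checked against markers of other cells, and the arrays hold RNA of many. Adipocyte genes, of which a stromal vascular preparation should hold little, were well above background on all 8 arrays (17 or 18 of 18 members on each), and Cfd and Fabp4 were saturated on all 4 early arrays and on 2 and 3 late arrays. Plin1, the coat protein of the fat droplet, had 2.07, 7.38, 2.58 and 1.27 early and -0.87, 5.62, 5.49 and -0.77 late. It was highest at 6 Day, Week9 and Week12, so the high arrays fall in both periods. Fos, an immediate-early gene that tissue handling induces, had 4.77, -1.72, 4.2 and 5.64 early and 5.69, -2.26, -2.76 and 5.65 late, low on the same 3 arrays. Acta1, the actin of skeletal muscle, had 3.71, 6.58, 2.73 and 1.66 early and 6.80, 5.69, -1.94 and 2.06 late, with its lowest value at Week12. These 3 genes were chosen after their values were seen.

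**Figure D3:**
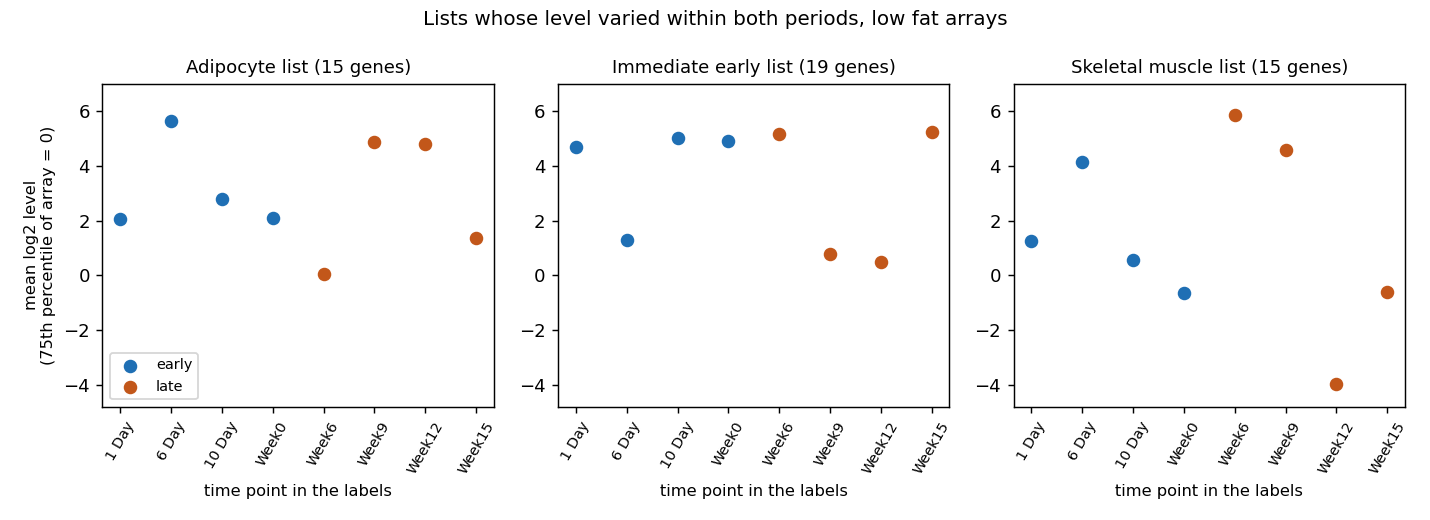
Mean log2 level of the adipocyte, immediate-early and skeletal muscle lists on each low fat array, with the 75th percentile of the array at 0; blue points are early and orange points late. The adipocyte list is highest at 6 Day (5.62), Week9 (4.86) and Week12 (4.81), where the immediate-early list is lowest (1.27, 0.79 and 0.50).

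By list, limma called 0 of 18 adipocyte genes with a median of -0.57, 0 of 20 immediate-early genes with a median of -1.03 and 0 of 15 skeletal muscle genes with a median of 0.13. Over the 23 alternatives these medians ranged from -1.28 to 0.74, from -1.91 to -0.17 and from -1.67 to 5.83. At an unadjusted p under 0.05 the lists held 1, 0 and 0, beside 9.2% of all genes tested. The named members were Jund at -1.20 and Klf4 at -0.38 for the immediate-early list and Tnnc2 at -1.48 and Myl1 at 0.35 for muscle, with Cfd and Fabp4 for fat cells. The summed level of the adipocyte list was 7.81, 10.45, 8.62 and 7.60 early and 6.30, 9.15, 9.06 and 7.43 late, and that of the muscle list was 6.96, 9.66, 5.73 and 4.52 early and 10.08, 9.25, 4.38 and 4.43 late. Both sums overlapped between the periods. They cover the members with a value on all 8 arrays, 15 of 18 for fat cells and 15 of 15 for muscle. The brightest members by mean level were Cfd and Fabp4 for fat cells, both at the limit of the scanner on several arrays, and Tnnc2 and Myl1 for muscle. Week12 was the array with the most muscle markers near the floor, with 13 of 15 well above background. The part of these cell contents in the differences reported here was not tested.

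Other blood cell lists had medians below 0 without a call. The counts at an unadjusted p under 0.05 here and in the lists below stand beside 9.2% of all genes tested. Cytotoxic lymphocyte genes had 0 of 11 called, 9 at an unadjusted p under 0.05 and a median of -2.37, with Nkg7, a granule protein, at -2.55 (adjusted p = 0.224) and Klrd1, a receptor of natural killer cells, at -2.34. Neutrophil genes had 0 of 10 called, 6 at an unadjusted p under 0.05 and a median of -2.37. S100a9, a calcium-binding protein of neutrophils, had 5.93, 4.34, 6.17 and 4.96 early and 1.22, 1.65, 1.05 and 5.41 late (difference -3.01, adjusted p = 0.312), and S100a8 differed by -2.50. Week15 lay among the early arrays for S100a9, so the groups overlapped. Erythroid genes had 0 of 5 called, 3 at an unadjusted p under 0.05 and a median of -1.40, with Alas2, the first enzyme of heme synthesis in red cells, at -3.08 (adjusted p = 0.0848) and Hba-a1, a globin saturated on 3 early arrays, at -1.40. Mast cell genes had 0 of 7 called, 4 at an unadjusted p under 0.05 and a median of -1.76. Cma1, a mast cell protease, had 1.58, 2.69, 1.84 and 2.39 early and -1.85, 0.20, 0.46 and 0.24 late (difference -2.36, adjusted p = 0.166), and Hdc, which makes histamine, differed by -0.69 with overlap.

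Genes of antigen presentation and interferon response were likewise not called. MHC class II genes had 0 of 10 called, 4 at an unadjusted p under 0.05 and a median of -1.03. H2-Oa, a chain of the peptide-loading regulator of B cells, differed by -4.90 (adjusted p = 0.0533), while the broadly expressed H2-Ab1 differed by -0.86, and Cd74 was saturated on 2 early and all 4 late arrays. Interferon-stimulated genes had 0 of 17 called, 5 at an unadjusted p under 0.05 and a median of -1.39, with Cxcl10 at -2.14. Inflammatory genes had 0 of 15 called, 0 at an unadjusted p under 0.05 and a median of -0.98, with Ccl2 at -0.93 and Nfkbia at -0.49. Complement genes had 0 of 13 called, 0 at an unadjusted p under 0.05 and a median of -0.01, with C2 at -0.11 and C3 saturated on all 4 early and 3 late arrays.

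Among matrix and vessel lists no member was called. Collagens had 0 of 17 and a median of -0.67, with Col3a1 and Col1a2 saturated on at least 3 arrays of each group. Elastic and other matrix genes had 0 of 20 and a median of -0.73, with Sparc at -0.54 (saturated on 1 early and 2 late arrays) and Dcn saturated on 1 early and all 4 late arrays, collagen processing genes 0 of 15 and -0.58, with Pcolce at -0.67 and Serpinh1 at -0.43, and matrix proteases 0 of 17 and -0.12, with Timp2 at 0.18 and Timp3 at -0.08. Stromal progenitor markers had 0 of 16 and a median of -0.46, with Gsn saturated on 2 early and all 4 late arrays, endothelial markers 0 of 15 and -0.63, with Robo4 at -0.63 and Cldn5 at -0.45, and mural cell markers 0 of 11 and -0.18, with Tagln at -0.62 and Acta2 at -0.40. At an unadjusted p under 0.05 these lists held 3, 5, 1, 1, 0, 1 and 0 members in the order given.

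Growth and signalling lists held no call either. Imprinted genes of growth had 0 of 16 and a median of -0.64, with Sgce at 0.22 and Igf2r at -0.09. Mest, an imprinted gene that is high in young growing tissue, had 1.37, 1.46, 1.83 and 1.23 early and -0.56, -0.18, -1.60 and -0.25 late (difference -2.12, adjusted p = 0.0977), without overlap, and was named after its values were seen. Oncofetal genes had 0 of 6 and a median of -0.34, with Hmga1 at -0.65 and Igf2bp2 at 0.37, genes of the IGF axis 0 of 11 and 0.31, with Igfbp6 at 0.66 and Igfbp7 saturated on 2 early and all 4 late arrays, TGF-beta genes 0 of 18 and -0.17, with Tgfbr2 at -0.66 and Tgfbi at -0.24, and Wnt genes 0 of 22 and -0.35, with Sfrp2 at -0.35 and Fzd4 at -0.13. At an unadjusted p under 0.05 these held 3, 1, 0, 1 and 6 members in the order given.

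Metabolic lists had medians between -0.52 and 0.31. Lipogenesis genes had 0 of 15 called and a median of 0.18, with Fasn at -1.34 (saturated on 3 early and 2 late arrays) and Scd1 at -1.22 (saturated on 1 early and 2 late arrays). Cholesterol synthesis genes had 0 of 20 and a median of -0.43, with Hmgcs1 at -0.43 and Pmvk at -0.05. Brown fat genes had 0 of 8 and a median of -0.08, with Cidea at -1.07 and Cox7a1 at 0.46. Fatty acid oxidation genes had 0 of 16 and a median of 0.31, with Etfb at -0.47 and Acadvl at -0.39, both saturated on 1 early and 2 late arrays. Respiratory chain genes had 0 of 19 and a median of -0.02, with Atp5b at -0.45 and Cox4i1 at -0.37, both saturated on 2 arrays of each group. Ribosomal protein genes had 0 of 20 and a median of -0.52, with Rps18 saturated on 2 arrays of each group and Rps14 on 3 early and all 4 late arrays. At an unadjusted p under 0.05 they held 1, 3, 1, 0, 0 and 0 members in the order given.

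Stress, clock and other lists also held no call. Heat shock genes had 0 of 9 and a median of 0.06, with Hspa8 at 0.18 and Hsp90aa1 at 0.07, unfolded protein genes 0 of 15 and -0.08, with Hspa5 at 0.64 and Hsp90b1 at 0.23, clock genes 0 of 16 and 0.23, with Dbp at 0.15 and Bhlhe40 at 0.12, and glucocorticoid and metallothionein genes 0 of 9 and 0.01, with Cebpd at -0.31 and Mt2 at 0.01. Keratinocyte genes had 0 of 11 and a median of -1.56, with Perp at -0.59 and Sfn at -0.12. Over the 4 keratinocyte members well above background on all 8 arrays the median was -0.36. Luminal epithelial genes had 0 of 6 and a median of -0.04, with Krt18 at -0.20. Krt8 was well above background on 3 early and 2 late arrays, so the size of its difference rests on floors and is not given. Schwann cell genes had 0 of 7 and a median of -2.28, with Mbp at -2.83 and Pmp22 at -1.02, and Y-linked genes 0 of 4 and 0.54, with Eif2s3y at 0.56 and Ddx3y at 0.53. Xist was too dim to be tested. At an unadjusted p under 0.05 these lists held 0, 1, 1, 0, 5, 0, 3 and 0 members in the order given.

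For genes with higher late levels there are values and no calls. The 15 with the lowest unadjusted p among those without overlap are named here. Spa17, a sperm surface protein also found on other cells, had -3.20, -3.56, -3.88 and -3.33 early and -1.06, -1.58, -1.18 and -1.11 late (difference 2.26, SE 0.356, adjusted p = 0.0552). Inmt, a methyltransferase for indole amines, had 2.01, 0.18, 0.43 and 1.75 early and 3.90, 2.95, 3.94 and 3.63 late (difference 2.51, SE 0.518, adjusted p = 0.104). Amhr2, the receptor for anti-Müllerian hormone, had -4.19, -2.44, -3.20 and -4.10 early and -1.12, -1.08, -1.06 and -1.45 late (difference 2.31, SE 0.464, adjusted p = 0.0977). The groups did not overlap in these 3 genes, and Spa17 and Amhr2 were below the 75th percentile on every array. Gsta1, a glutathione transferase, was well above background on 3 early and all 4 late arrays (adjusted p = 0.144). The others are mostly predicted genes of unstated role. Those well above background on all 8 arrays were Gm7189 at 3.21, Gm15294 at 3.01, Gm8815 at 2.21, Gm5136 at 1.90 and Gm12261 at 1.87. Gm6803, Gm9682, Gm2059 and XR_004464 were well above background on 3 early arrays and 0610010O12Rik and Gm4363 on 2. The sizes of their differences thus rest in part on dim early values, which in Gm6803 and Gm4363 include floors, and are not given.

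Whether the late minus early difference depended on diet was tested against the HFC arrays of the same 8 time points. Limma's interaction of diet and period called 0 of 23838 genes (0%), with 2177 at an unadjusted p under 0.05 and a lowest adjusted p of 0.569. On the HFC arrays Cd79b had -2.55, -0.95, -1.31 and 2.37 at 1 Day, 6 Day, 10 Day and Week0 and 1.09, -1.77, -0.27 and 3.44 at Week6, Week9, Week12 and Week15. These levels did not follow the periods, and Week0 and Week15 were the highest. The Cd79b interaction was 5.83 (SE 1.42, adjusted p = 0.569). Glycam1 had -4.52, -2.89, -0.62 and 2.37 early and -5.94, -6.74, -2.36 and 3.78 late on HFC, and Cdk1 had -4.56, -2.21, -0.40 and -1.01 early and -2.73, -2.43, -3.49 and -2.60 late. Of the genes named for higher late levels, Gm7189 had an interaction of -2.75 and Inmt one of 0.53. Genes chosen by their low fat differences, higher or lower, tend to interactions of the opposite sign through that choice alone, so nothing is read from these signs. The HFC late minus early difference of Spa17 was 0.51 (interaction -1.75), and that of Amhr2 was 1.90 (interaction -0.40), with HFC levels of Amhr2 at -5.20, -4.63, -4.26 and -4.35 early and -2.42, -2.08, -2.42 and -3.91 late.

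The calls depended on which arrays were used. Without 1 Day, 10 Day or Week9 no gene was called (982, 957 and 1024 lower at an unadjusted p under 0.05), without 6 Day, Week6 or Week12 limma called 2 genes as lower, without Week15 it called 15 lower, of which 10 are among the 20, and without Week0 it called 104 lower and 5 higher. The 8 arrays lay on 8 slides and were scanned on 8 days, and Week0 was the only early array scanned before the last late array. The scan span divides the arrays into those scanned up to the last late array and those scanned after it. With the scan span as a block, chosen after seeing the data, the difference rests on Week0 alone against the 4 late arrays, and limma called 0 genes (114 higher and 327 lower at an unadjusted p under 0.05). Among the arrays scanned up to the last late array, Week0 lay above the mean of the late arrays by 4.2 for Cd79b and by 3.01 for Cdk1. Both are called genes without overlap, in which Week0 lies above every late array by that choice, so nothing further is read from this.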

How the data were processed

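The 8 low fat arrays, 4 early and 4 late, are 1-colour Agilent 44K arrays. Per the file headers, the deposited intensity values come from Feature Extraction 10.5.1.1, with background subtraction and spatial detrending inside each array and no normalization between arrays. The labels name version 9.1. The authors also deposited fold changes against the low fat array of each time point, which were not used. In R 4.3.3, control and outlier spots were left out, spots of a probe were averaged, log2 intensities were shifted by the array's 75th percentile, and dim values were raised to the lowest level well above background on that array. Saturated spots were kept, so differences of the brightest genes include values at the scanner's limit, also where this is not stated beside a gene. Probes were kept if 50% or more of the arrays in either group were well above background and each group had at least 2 measured arrays, and they were tested with limma 3.58.1 (two-sided, Benjamini-Hochberg adjusted over all 31139 probes, threshold 0.05). A gene is its probe with the highest mean level. Mean and summed levels of a list use its members with a value on all 8 low fat arrays. Of 40628 probes, 28136 were named through a RefSeq accession. The interaction with diet used the time point as a block.

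Named genes are the 15 with the largest differences per direction among called genes without overlap, filled up by lowest p among uncalled genes that do not overlap and differ by at least 1, and from each of 46 gene lists its called members or, with none, the 2 of highest mean level. All other called genes are named too, some items that these rules select are not reported here, and further members were named after their values were seen. The members and lists were chosen with earlier results of these data known. The 75th percentile intensities were 787, 390, 436 and 1277 early and 611, 1259, 1409 and 862 late, with 52.2% to 75.5% of probes well above background, and the number of arrays limits the precision. The programs were tested on simulated data. Alternatives covered background correction, normalization, filters, probe choice, added arrays, each array left out, the methods' t-test and scan blocks. Figures were drawn with matplotlib 3.10.9.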

Additional observations from a re-analysis of the deposited data

Results flagged for a closer look

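In each period, 4 arrays were compared by the gap between the highest or lowest array and its neighbour, divided by the range. The gap exceeded Dixon's 95% critical value in 21 of 323 groups (6.5%), where chance gives about 1 in 20. No reason for any of them was tested.

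On the late arrays, Week15 stood apart as high for Cd22 (0.927, level -3.78 against -5.19 for the next array), S100a9 (0.863, 5.41 against 1.65) and the endothelial list (0.844). It stood apart as low for Amhr2 (0.85). Week12 was low for Ccnb1 (0.863, -5.06 against -3.84), LOC100048203 (0.865) and the mitosis list (0.9, mean level -3.68 against -2.50). Week6 was low for Cma1 (0.888, -1.85 against 0.20) and Clec10a (0.901, 1.59 against 4.28).

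On the early arrays, 6 Day was high for Scd1 (0.924, 7.40 against 4.48), Gm15294 (0.928), Eif2s3y (0.853) and the fatty acid oxidation list (0.979, 4.54 against 1.89). It was low for Cxcl10 (0.868, -0.57 against 3.55) and for the immediate-early (0.912, 1.27 against 4.70), Schwann cell (0.942), luminal epithelial (0.891) and stromal progenitor (0.875) lists. The 6 Day array also had the lowest percentage of probes well above background (0.838, 52.2 against 66.1). The 1 Day array was low for the collagen (0.85) and Y-linked (0.832) lists.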

How the results depend on the processing

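The 20 called genes had differences below 0 in all 23 alternatives that tested them. A pair of these, the scan span as a block and Week0 alone, compare the same 1 early array with the late arrays. Since all late arrays lay below all early arrays in these genes, alternatives that only left out arrays or changed the test had to keep this sign. It is thus no measure of stability. Medians below 0 in all 23 were also found for the B cell (-5.19 to -1.98), lymph node (-5.78 to -2.57), T cell (-4.30 to -2.01), mitosis (-3.18 to -0.93) and DNA replication (-1.66 to -0.11) lists. The same was found for many further lists, among them macrophage markers (-0.82 to -0.10), collagens (-1.26 to -0.05) and immediate-early genes (-1.91 to -0.17). A median that stayed below 0 was thus not particular to the lists with calls. Of 2694 values of named results 2222 kept their side of the threshold or their size, 273 were weaker (calls lost), 186 moved, 13 were stronger and 0 reversed a call. Of the called genes, Cd79b was called in 10 of the 23 alternatives, Cdk1 in 8 and Siglecg in 6. The counts moved more. Limma called 335 higher and 8610 lower genes with normexp (the median of all genes was -0.73, and its added constant weighs more on dim arrays), 1 and 46 with quantile normalization, 1 and 86 with probes well above background on all arrays, 0 and 3 with the percentile over such probes, and 0 and 12 without raising dim values. It called 0 and 0 with the HFC arrays added (714 higher and 1657 lower at an unadjusted p under 0.05), with 14 Day, Week3 and Week18 added (375 higher and 44 lower, median of all genes 0.37) and with 3 alternatives chosen after seeing the data, namely the scan span as a block (114 higher and 327 lower, median 0.17), the scan month as a block (322 higher and 217 lower, median 0.18) and Week0 alone against the late arrays (138 higher and 331 lower, median 0.16). So with 14 Day, Week3 and Week18 added or with the month block more genes were higher than lower, unlike the main comparison. The methods' t-test gave 0 and 0 after adjustment, and 314 higher and 1107 lower genes at p under 0.05 with a 2-fold difference. Leaving out each array in turn gave 0 to 5 higher and 0 to 104 lower genes, with 0 B cell markers called in 3 of the 8 cases, 0 lymph node markers in 6 and 0 mitosis genes in 7. Mitosis genes also had 0 calls without raising dim values and with the percentile over probes well above background, and 12 with only such probes kept. The causes were not tested.

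The interaction with diet called 7892 genes with normexp and 0 with quantile normalization or with any time point left out. Without the time point block that pairs the diets it called 0, with 993 at an unadjusted p under 0.05. The deviations of paired arrays correlated across genes between -0.40 and 0.62. For the low fat comparison a slide block could not be fitted, since each of its 8 arrays lay on a slide of its own. For the interaction, the diets shared a slide at 3 of the 8 time points, and a slide block was not fitted. By exact two-sided permutation tests with a smallest possible p of 0.0286, signal over background gave p = 0.486 and outlier spots (means 327 early and 36 late) p = 0.0571, or 0.486 and 0.228 adjusted over 4 measures.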

Other observations

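The low fat Week18 array, left out of the comparison, had Cd79b at 4.03, a level like the early arrays, while Glycam1 was not well above background there (floor -5.81). Its mean levels were 3.17 for the mitosis list, 5.43 for the neutrophil list, 5.19 for the erythroid list and -3.94 for the collagens, outside the range of the other 8 arrays in each of these lists. The 14 Day array had mean levels of -0.77 for the B cell list, -1.10 for the lymph node list and -1.06 for the mitosis list, but its floor was -2.51, far above those of the 8 arrays (-7.12 to -4.38), and 7 of 9, 4 of 8 and 13 of 20 members were well above background, so floors raise these means. On the Week3 array most markers were at a floor far above that of the other arrays and have no order against them, while Glycam1 stood at 6.90. On the HFC arrays the mean level of the B cell list was -4.66, -3.27, -4.37 and -1.79 at 1 Day, 6 Day, 10 Day and Week0 and -3.88, -5.54, -3.75 and -0.70 at Week6, Week9, Week12 and Week15.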
